A study of Mus musculus with 9 samples.

Results

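The subject is a set of 34 genes of glycolysis and of the response to low oxygen, listed by gene symbol, and their transcript levels in activated hepatic stellate cells (aHSCs) of the mouse. Every probe whose symbol, or else synonym, was a listed gene was taken, which gave 57 probes for 32 of the 34 genes, out of 45281 gene probes for 30869 symbols. Hk2 and Ldhb were matched by neither and were not analysed here. A probe was tested where it was detected (detection p under 0.05) on at least 3 of the 9 arrays, and 45 probes of 30 genes passed. The other 2 genes, Bnip3 and Ero1l, were detected on no array. Detection anywhere among the 9 arrays sufficed, so a gene could enter through the group in which it was high.

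The study compared 3 subpopulations of aHSCs, the scar-forming cells of injured liver, with 3 Illumina bead arrays each. All came from WT1GFP/+ mice of the strain C57/Bl6, labelled male, in which 1 copy of the locus of WT1 carries green fluorescent protein (GFP) as a reporter of WT1, a transcription factor of the mesothelium. WT1-high (GFP high; replicates 1, 8 and 29) and WT1-intermediate (GFP low; replicates 1, 8 and 30) cells were sorted straight from livers made fibrotic by repeated carbon tetrachloride, from 3 animals. WT1-negative cells (GFP negative; replicates 3, 11 and 14) were quiescent stellate cells of uninjured livers, activated for 7 days on plastic before sorting. The injured mice were 8 to 12 weeks old when treatment began. The labels give male sex for every sample, whereas the methods name males for injury models and both sexes for cultures, so the sex behind the WT1-negative arrays is not settled. WT1 status and origin (liver or culture) changed together, so they cannot be told apart in either comparison with WT1-negative cells. The cells were taken by buoyancy and GFP alone. In such bulk samples, fewer cells of a type and less RNA per cell cannot be told apart either.

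Glycolysis splits glucose into pyruvate in the cytosol, and cells turn pyruvate into lactate when oxygen is short or growth is fast. Low oxygen is sensed by prolyl hydroxylases (the Egln genes), which mark hypoxia-inducible factor 1 alpha (HIF-1α, Hif1a) for destruction while oxygen is present. Once stable, HIF-1 switches on most glycolytic enzymes, lactate dehydrogenase A, pyruvate dehydrogenase kinase 1 and the angiogenic factor Vegfa, and a rise in glycolysis is a known part of stellate cell activation.

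Levels are log2 intensities after background correction and quantile normalization. A difference is the first group's mean minus the second's, given with its standard error (SE), and the adjusted p is limma's, by Benjamini-Hochberg over all 20573 probes tested. A gene is termed called where that adjusted p was under 0.05, and the probe with the highest mean stands for a gene. Mean raw intensity per array lay between 147.5 and 288.9, and 38.1% to 43.7% of gene probes were detected, with the lowest mean intensity in the WT1-intermediate group.

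Markers of several cell types changed along with WT1 status. All 7 mesothelial markers were detected on every WT1-positive array and only 1 of 7 on every WT1-negative array. Of 10 listed stellate cell markers, 6 passed the detection filter, while Lrat, Gfap, Rgs5 and Lhx2 did not. Of these 6, 4 were detected on all arrays of WT1-high, 5 of WT1-intermediate and 6 of WT1-negative cells. Their summed level (normalized linear intensity, lowest to highest array) was 2913 to 4420, 2384 to 3231 and 1024 to 1422, respectively. Against WT1-negative cells, 1 of the 6 was called higher and 3 lower in WT1-high, and 1 higher and 2 lower in WT1-intermediate cells. All 6 activation markers were detected on every array, with 3 higher and 2 lower in WT1-high than in WT1-negative cells. The summed level of 11 macrophage markers was 3620 to 6553 in WT1-high, 12487 to 20108 in WT1-intermediate and 35342 to 40225 in WT1-negative cells. Single macrophage markers moved both ways, with 1 higher and 7 lower in WT1-high and 3 higher and 4 lower in WT1-intermediate against WT1-negative cells. Among them, Cd68 was at a log2 level of 12.67 ± 0.09 in WT1-negative cells (SD, n = 3) and Lyz1 at 4.52 ± 0.35, near background. The 7 skeletal muscle markers summed to 6467 to 9739 in WT1-negative cells, where all 7 were detected on every array, against 133 to 144 in WT1-high cells, where none was detected on any. The 7 cell cycle markers summed to 2562 to 3193 in WT1-negative, 216 to 399 in WT1-high and 192 to 252 in WT1-intermediate cells. Conversely, 5 hepatocyte markers summed to 292 to 1412, 393 to 1100 and 95.8 to 125 in these 3 groups (in the order WT1-high, WT1-intermediate, WT1-negative), and 5 T and NK cell markers to 479 to 800, 445 to 875 and 102 to 109. Of the 8 listed in each, Alb, Fgb, Tat, Cd8a and Cd4 failed the detection filter, and Gzma had no probe. On WT1-negative arrays, 4 of the 5 hepatocyte and 3 of the 5 T and NK cell markers were never detected, so these entered through the WT1-positive groups. Ccr2, Ckm and Bub1 of the macrophage, muscle and cell cycle lists also failed the filter. The part of these cell types in the differences below was not tested.

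Compared with cultured WT1-negative cells, both WT1-positive populations had lower levels of most glycolytic transcripts, from the first isomerase to lactate dehydrogenase, while 2 genes of the oxygen response, Ndrg1 and Egln3, were many times higher. In WT1-high cells, 20 of the 30 tested members (66.7%) were called, 2 higher and 18 lower. Over all 14659 genes tested, 59.8% were called in that comparison, 27.6% higher and 32.1% lower. In WT1-intermediate cells, 22 of 30 (73.3%) were called, 3 higher and 19 lower, where 57.9% of all genes were called, 25.9% higher and 32% lower. The share called was thus near that of all genes, while the share lower was 60.0% and 63.3%. The median differences over the 30 members were -0.56 and -0.65, beside -0.07 and -0.10 over all genes. Both comparisons share the WT1-negative arrays. Scaling each array to a common median in place of quantile normalization moved the median of all genes in WT1-intermediate cells from -0.10 to -0.43 and that of the members to -1.24, so that the members lay at -0.81 relative to all genes in place of -0.55.

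Of the 21 tested members on the path from glucose to lactate, 15 were lower and 0 higher in WT1-high cells (median difference -0.88), and 16 were lower and 0 higher in WT1-intermediate cells (median -0.79). This set also held the regulators Pfkfb3, Pfkfb4 and Pdk1. Pdk1, a HIF-1 target too, was counted there and not among the hypoxia targets. Of the 14 enzymes from Gpi1 to Pkm2 alone, 11 were lower in WT1-high (median -0.97) and 12 in WT1-intermediate cells (median -0.84). Of the 5 tested hypoxia targets outside glycolysis, 1 was higher, 1 lower and 3 not called in WT1-high cells, with differences from -2.41 to 3.94. These 5 genes had no common direction. Between WT1-high and WT1-intermediate cells, only 2 of 30 members were called, Egln3 and Vegfa, 1 in each direction (3.83% of all genes were called there, 0.962% higher and 2.87% lower).

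**Figure D1:**
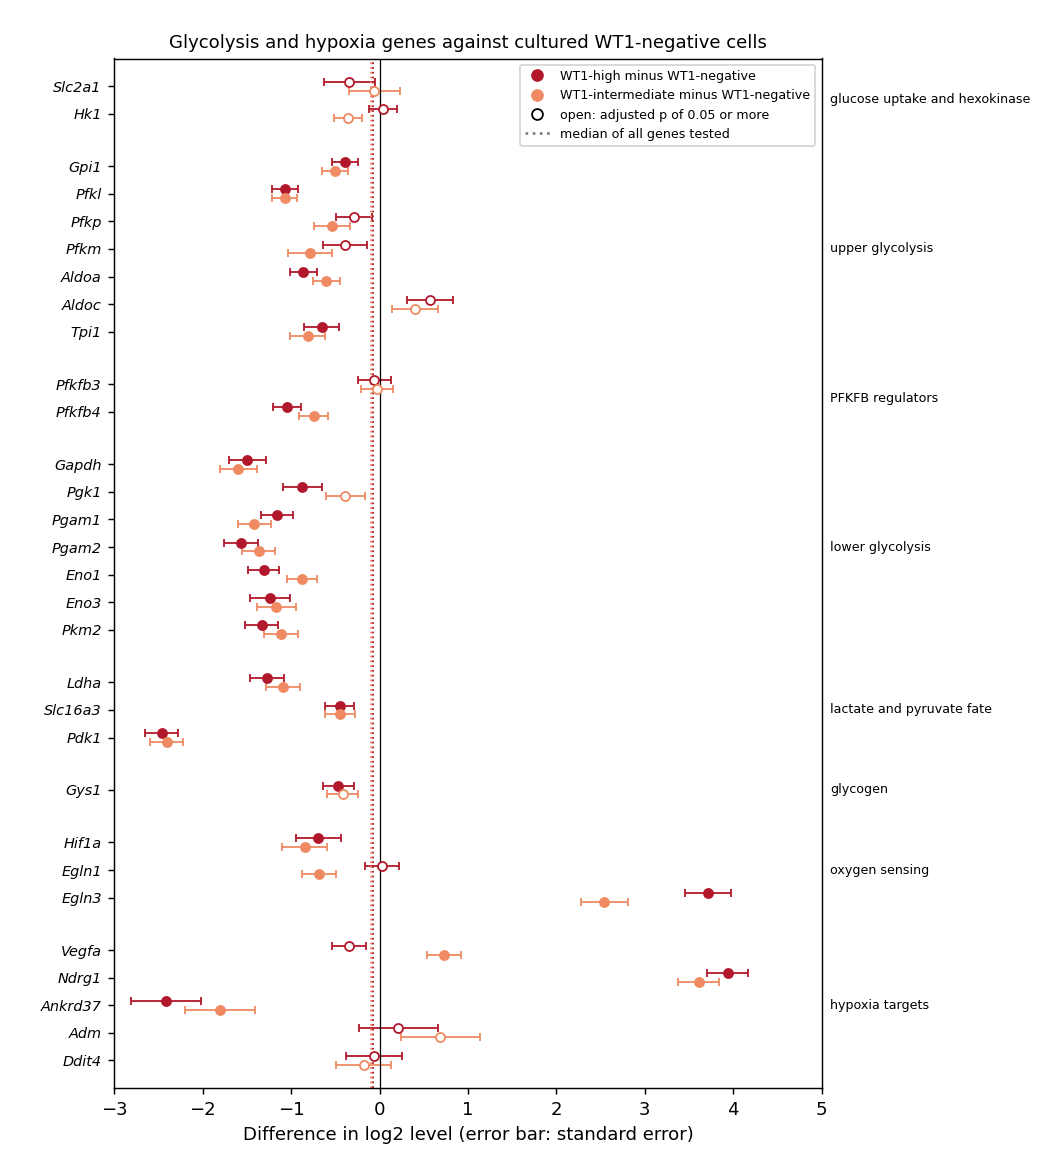
Difference in log2 level between each WT1-positive group and WT1-negative cells for the 30 tested members, ordered by role. Points are differences (3 arrays per group), bars are standard errors, open points were not called, and dotted lines mark the median of all genes tested (-0.07 and -0.10). From Gpi1 to Ldha all points lie left of 0 with the exception of Aldoc, whereas Egln3 and Ndrg1 lie between 2.54 and 3.94.

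Promoters were looked at because many of these members, though not all, are textbook targets of HIF-1, which binds the short sequences ACGTG and GCGTG. The 250 bases before each transcription start, taken from RefSeq (GRCm38.p6), were searched for ACGTG and GCGTG on both strands. At least 1 match lay before at least 1 start of 29 of the 33 members with a promoter entry (87.9%), of which several have more than 1 start, and before 41.5% of all 27025 genes. Among members lower in WT1-high than in WT1-negative cells, 14 of 18 had a match, as did 10 of the 10 that were not called and Egln3, which was higher. Matches therefore lay before members that were lower, higher and not called. Ndrg1 had no entry. The windows of 4 members that were lower in WT1-high cells and of Egln3 are shown as examples of how many such letters they carry and where. Matches on either strand are in capitals, and overlapping matches run together.
Ldha (chr7:46845554-46845803, plus strand): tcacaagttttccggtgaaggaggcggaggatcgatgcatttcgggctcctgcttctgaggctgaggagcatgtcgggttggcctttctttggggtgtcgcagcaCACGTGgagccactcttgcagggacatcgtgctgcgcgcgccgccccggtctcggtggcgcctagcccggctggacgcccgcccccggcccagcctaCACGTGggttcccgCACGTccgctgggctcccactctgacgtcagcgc
Pdk1 (chr2:71872974-71873223, plus strand): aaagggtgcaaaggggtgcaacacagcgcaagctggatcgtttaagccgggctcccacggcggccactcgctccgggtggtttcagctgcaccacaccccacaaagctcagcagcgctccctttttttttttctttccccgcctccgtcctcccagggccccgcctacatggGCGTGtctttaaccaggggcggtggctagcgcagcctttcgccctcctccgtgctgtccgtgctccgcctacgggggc
Ankrd37 (chr8:45999851-46000100, minus strand): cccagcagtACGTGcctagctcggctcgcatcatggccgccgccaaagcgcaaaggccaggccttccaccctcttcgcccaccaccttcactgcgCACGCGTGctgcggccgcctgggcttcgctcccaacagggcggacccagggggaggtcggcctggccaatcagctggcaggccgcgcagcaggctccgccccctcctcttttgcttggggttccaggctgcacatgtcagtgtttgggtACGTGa
Pgk1 (chrX:106186850-106187099, plus strand): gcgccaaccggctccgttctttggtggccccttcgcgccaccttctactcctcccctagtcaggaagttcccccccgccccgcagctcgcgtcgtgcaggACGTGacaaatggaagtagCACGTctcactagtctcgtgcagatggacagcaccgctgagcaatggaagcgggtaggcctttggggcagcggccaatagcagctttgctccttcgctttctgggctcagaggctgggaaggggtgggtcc
Egln3 (chr12:54203875-54204124, minus strand): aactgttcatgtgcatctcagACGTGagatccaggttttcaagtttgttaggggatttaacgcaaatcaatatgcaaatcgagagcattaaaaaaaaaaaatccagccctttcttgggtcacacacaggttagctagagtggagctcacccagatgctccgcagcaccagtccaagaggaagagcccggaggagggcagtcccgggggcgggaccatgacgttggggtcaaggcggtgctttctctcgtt
Ldha held 5 matches, counting both strands of each CACGTG, and Ankrd37 held 4. Pgk1 held 2, beginning 150 and 131 bases before the start. Pdk1 and Egln3 held 1 match each, at 78 and 229 bases. For Ldha and Pdk1, each with 2 annotated starts, the more upstream window is shown.

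Entry of glucose into the pathway was measured by 2 genes, neither of which was called against WT1-negative cells. Slc2a1, the main glucose transporter outside liver and muscle, differed by -0.34 (SE 0.29, adjusted p 0.33) in WT1-high and by -0.06 (SE 0.29, adjusted p 0.86) in WT1-intermediate cells. Its WT1-negative levels were themselves apart, at 10.14, 9.08 and 9.34 on replicates 3, 11 and 14. Hk1, the hexokinase of most tissues, differed by 0.04 (SE 0.16) and -0.36 (SE 0.16), with adjusted p of 0.85 and 0.078.

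Of 7 upper glycolytic genes, 4 were lower in WT1-high cells and 6 in WT1-intermediate cells, and none was higher. Pfkl, the liver form of phosphofructokinase and thus of the committed step, was at 8.62, 8.73 and 8.81 on the WT1-high arrays, 8.64, 8.74 and 8.77 on the WT1-intermediate arrays and 9.96, 9.82 and 9.59 on the WT1-negative arrays. Every WT1-positive array lay below every WT1-negative one, and the WT1-positive groups overlapped. The differences were -1.07 (SE 0.15, 2.10-fold lower, adjusted p 8.2e-05) in WT1-high and -1.08 (SE 0.15, 2.11-fold lower, adjusted p 8.8e-05) in WT1-intermediate cells. Aldoa, the aldolase of most tissues, changed by -0.86 and -0.60 (SE 0.16), and Tpi1, triosephosphate isomerase, changed by -0.65 and -0.81 (SE 0.20), in WT1-high and WT1-intermediate cells, respectively. The call of Tpi1 in WT1-high cells was lost without WT1-negative replicate 3 (adjusted p 0.068) and with median scaling (0.14). Another bright Tpi1 probe gave -0.37 (adjusted p 0.10, not called) in WT1-high and -0.61 (adjusted p 0.014) in WT1-intermediate cells. A dimmer Tpi1 probe was called lower in both groups (-1.15 and -1.49). Gpi1, the isomerase that follows hexokinase, had the smallest called difference of the 7, -0.39 and -0.51 (SE 0.15). In WT1-high cells its call ended when any of these was left out (adjusted p in parentheses): WT1-high replicate 1 (0.12), WT1-high replicate 8 (0.066), WT1-high replicate 29 (0.064), WT1-intermediate replicate 30 (0.052), WT1-negative replicate 3 (0.15) or WT1-negative replicate 11 (0.11). It also ended there with array weights (0.057), cyclic loess normalization (0.076), the mean over its probes (0.075) and median scaling (0.27). In WT1-intermediate cells it ended without WT1-negative replicate 3 (0.058).

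The other phosphofructokinase genes depended on the probe as well. Pfkp, the platelet form, differed by -0.29 (adjusted p 0.25) and -0.54 (adjusted p 0.042) on its brightest probe, and by -1.14 and -1.36 on a dimmer one (adjusted p 0.00059 and 0.00018). With a random replicate block, the call of the brightest Pfkp probe in WT1-intermediate cells was lost (adjusted p 0.059), as it was without WT1-high replicate 1 (0.054), WT1-intermediate replicate 1 (0.12), WT1-intermediate replicate 8 (0.14), WT1-negative replicate 3 (0.11), WT1-negative replicate 11 (0.052) or WT1-negative replicate 14 (0.11). Pfkm, the muscle form, differed by -0.39 (adjusted p 0.20) and -0.79 (adjusted p 0.020) on its brightest probe, whose call in WT1-intermediate cells was lost without WT1-intermediate replicate 1 (0.078), or without WT1-negative replicate 11 (0.082). With no detection filter, both the Pfkp (0.091) and the Pfkm (0.067) calls in WT1-intermediate cells were lost. With only the 2 compared groups in the fit, that of Pfkp was lost (0.053). Both dimmer Pfkm probes were called lower in both groups, with differences between -1.34 and -0.66. Aldoc, the brain form of aldolase, was the exception among the enzymes, at 0.57 (SE 0.26, adjusted p 0.075) and 0.40 (SE 0.26, adjusted p 0.20). With median scaling its sign turned in WT1-intermediate cells (-0.31). Aldoc passed the threshold in WT1-high cells without WT1-intermediate replicate 1 (0.044) or WT1-intermediate replicate 8 (0.035), and in WT1-intermediate cells without WT1-intermediate replicate 1 (0.044).

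Of the bifunctional enzymes that set fructose 2,6-bisphosphate, the strongest activator of phosphofructokinase, Pfkfb4 was lower and Pfkfb3 was near background. Pfkfb4 was at 7.45, 7.24 and 7.09 on the WT1-high arrays, 7.81, 7.47 and 7.40 on the WT1-intermediate arrays and 8.22, 8.35 and 8.34 on the WT1-negative arrays. All WT1-positive arrays were below all WT1-negative arrays, and WT1-intermediate replicate 1 came closest. Pfkfb4 changed by -1.05 (SE 0.16, adjusted p 0.00019) in WT1-high and by -0.75 (SE 0.16, adjusted p 0.0021) in WT1-intermediate cells. Pfkfb3 was detected on 2 of 3 arrays in each group, with differences of -0.06 and -0.03 (SE 0.19).

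The later steps of the pathway, from glyceraldehyde phosphate to pyruvate, were mostly lower in both WT1-positive groups. On their brightest probes, all 7 tested genes were called lower in WT1-high cells, with a median difference of -1.31, and 6 of 7 in WT1-intermediate cells, with a median of -1.17. Gapdh, glyceraldehyde-3-phosphate dehydrogenase and a common reference gene, was at 10.76, 10.99 and 10.72 on the WT1-high arrays, 10.90, 11.05 and 10.21 on the WT1-intermediate arrays and 12.40, 12.35 and 12.21 on the WT1-negative arrays. The WT1-positive arrays overlapped each other and lay more than 1 log2 unit below the WT1-negative ones. Gapdh was 2.82-fold lower in WT1-high cells (difference -1.50, SE 0.21, adjusted p 8.9e-05) and 3.02-fold lower in WT1-intermediate cells (difference -1.60, SE 0.21, adjusted p 6.3e-05). Pgk1, phosphoglycerate kinase, which makes the first ATP of the pathway, changed by -0.88 (SE 0.22, adjusted p 0.0054) in WT1-high cells. In WT1-intermediate cells it differed by -0.39 (adjusted p 0.15). This passed the threshold without WT1-intermediate replicate 1 (0.033), with the mean over its probes (0.026) and with median scaling (0.013). A Pgk1 probe near background (ILMN_2797973) was called lower in both groups (-0.48 and -0.52, adjusted p 0.032 and 0.022).

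Both enolase genes were lower. Eno1, the enolase of most tissues, was at 9.84, 9.97 and 9.94 on the WT1-high arrays, 10.71, 10.28 and 10.07 on the WT1-intermediate arrays and 11.25, 11.34 and 11.10 on the WT1-negative arrays. The 3 groups did not overlap, with WT1-high cells lowest and WT1-intermediate cells between. Eno1 was 2.48-fold lower in WT1-high (difference -1.31, SE 0.17, adjusted p 6.5e-05) and 1.84-fold lower in WT1-intermediate cells (difference -0.88, adjusted p 0.0012), while WT1-high and WT1-intermediate cells differed by -0.43 (adjusted p 0.22, not called). Eno3, the muscle enolase, was at 6.60, 6.59 and 6.28 on the WT1-high arrays, 6.50, 6.92 and 6.27 on the WT1-intermediate arrays and 7.30, 8.03 and 7.87 on the WT1-negative arrays. It changed by -1.24 and -1.17 (SE 0.22, adjusted p 0.00060 and 0.00098), and the WT1-positive groups overlapped.

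Pgam2, the muscle phosphoglycerate mutase, was measured at 4.53, 4.50 and 4.62 on the WT1-high arrays, 4.80, 4.59 and 4.86 on the WT1-intermediate arrays and 5.75, 6.50 and 6.10 on the WT1-negative arrays. It was detected on 3 of 3 WT1-negative, 3 of 3 WT1-intermediate and 1 of 3 WT1-high arrays, so its WT1-positive levels were close to background. It changed by -1.57 (SE 0.19, adjusted p 3.0e-05) and -1.37 (adjusted p 9.5e-05). Skeletal muscle markers were higher in WT1-negative cells as well, among them Acta1, skeletal actin, at 10.77 ± 0.45 against 4.26 ± 0.06 in WT1-high cells (SD, n = 3), and the part of muscle-type cells in the levels of Pgam2, Eno3 and Pfkm was not tested. Within the WT1-negative group, Pgam2 and Eno3 were both lowest on replicate 3 and highest on replicate 11.

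Pgam1, the phosphoglycerate mutase of most tissues, could not be given a single direction. Its brightest probe (ILMN_2856157) was at 8.11, 8.23 and 8.27 on the WT1-high arrays, 8.16, 7.65 and 8.03 on the WT1-intermediate arrays and 9.66, 9.32 and 9.11 on the WT1-negative arrays. On this probe every WT1-positive array was below every WT1-negative one, with differences of -1.16 and -1.42 (SE 0.19, adjusted p 0.00026 and 6.8e-05). A second probe (ILMN_1232278), annotated to the same transcript but not checked against the genome for specificity, was at 6.54, 7.06 and 7.05 on the WT1-high arrays, 7.56, 7.07 and 7.23 on the WT1-intermediate arrays and 6.02, 4.70 and 5.27 on the WT1-negative arrays. There the order was the opposite, with differences of 1.56 and 1.96 (SE 0.29, adjusted p 0.00082 and 0.00018). With the mean over both probes, the differences were 0.20 and 0.27 and neither was called.

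Pkm2, the symbol on the array for the muscle-type pyruvate kinase gene (now Pkm), which makes pyruvate in the last step, was at 10.93, 10.75 and 10.80 on the WT1-high arrays, 11.39, 10.97 and 10.78 on the WT1-intermediate arrays and 12.45, 12.08 and 11.95 on the WT1-negative arrays. WT1-negative cells were above all WT1-positive arrays, and WT1-intermediate replicate 1 was the highest of these. Pkm2 was 2.52-fold lower in WT1-high (difference -1.33, SE 0.19, adjusted p 0.00011) and 2.16-fold lower in WT1-intermediate cells (difference -1.11, adjusted p 0.00045). A dimmer Pkm2 probe gave -2.12 and -1.96 (SE 0.14). Of the 15 further probes of 11 members, 12 had the sign of the brightest probe in WT1-high against WT1-negative cells and 13 in WT1-intermediate against WT1-negative cells. Opposite calls were given by Pgam1 alone in the former and by Pgam1 and Vegfa in the latter.

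**Figure D2:**
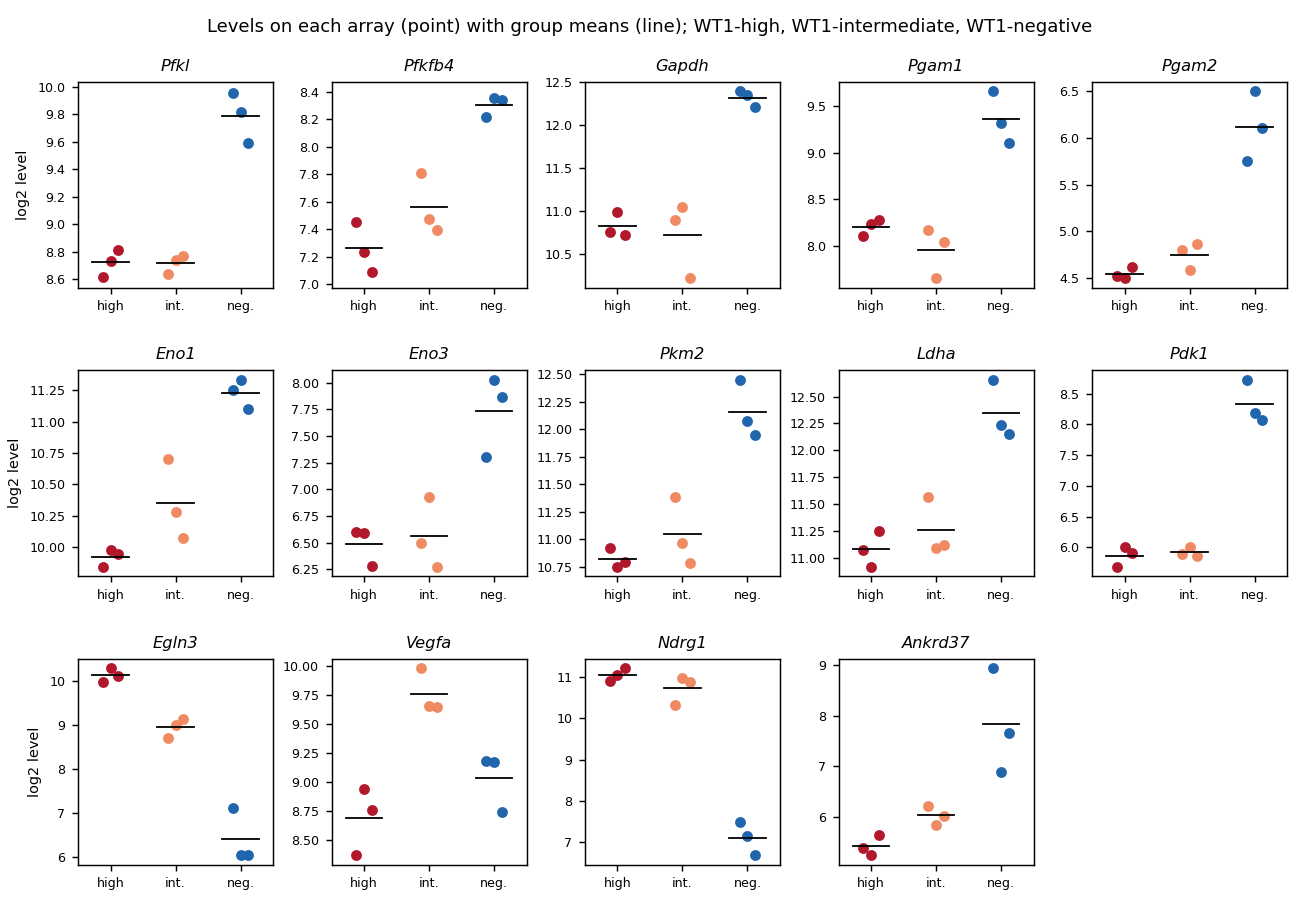
Log2 level on each of the 9 arrays for the 14 members with a called difference of at least 1 on the log2 scale, 1 panel per gene with its own axis. Points are arrays and lines are group means (n = 3); the WT1-negative points lie above all others in every panel except Egln3, Vegfa and Ndrg1.

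All 3 tested genes of lactate and pyruvate fate were called lower in both WT1-positive groups. Ldha, the lactate dehydrogenase subunit that favours lactate formation and whose promoter window is printed above, was at 11.07, 10.91 and 11.25 on the WT1-high arrays, 11.57, 11.09 and 11.11 on the WT1-intermediate arrays and 12.66, 12.24 and 12.15 on the WT1-negative arrays. The WT1-negative arrays were all above the WT1-positive ones, with replicate 3 highest. Ldha was 2.42-fold lower in WT1-high (difference -1.27, SE 0.19, adjusted p 0.00016) and 2.13-fold lower in WT1-intermediate cells (difference -1.09, adjusted p 0.00052). Slc16a3, the monocarboxylate transporter that exports lactate, was close to background everywhere, detected on 0 of 3 WT1-high, 1 of 3 WT1-intermediate and 2 of 3 WT1-negative arrays. It was at least 1.24-fold lower in WT1-high cells (measured means 4.40 ± 0.12 and 4.85 ± 0.29, SD, n = 3, adjusted p 0.037), a bound set against the lowest level of a detected probe on each WT1-high array. Its call was lost in WT1-high cells without WT1-high replicate 1 (0.084) or WT1-high replicate 8 (0.12), and in WT1-intermediate cells without WT1-high replicate 1 (0.055), WT1-high replicate 8 (0.055), WT1-intermediate replicate 8 (0.083) or WT1-intermediate replicate 30 (0.095). Array weights, cyclic loess, median scaling, no background correction and an offset of 50 each ended it in both groups. In all, it was lost in 7 of 15 alternatives in WT1-high and 11 of 15 in WT1-intermediate cells.

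Pdk1, a kinase that inhibits pyruvate dehydrogenase, was, with Ankrd37, one of the 2 members with the largest falls in both groups. Its level was 5.68, 6.01 and 5.91 on the WT1-high arrays, 5.90, 6.01 and 5.86 on the WT1-intermediate arrays and 8.73, 8.18 and 8.08 on the WT1-negative arrays. The WT1-positive groups overlapped within a narrow range, and all WT1-negative arrays were more than 2 log2 units higher. Pdk1 was 5.52-fold lower in WT1-high cells (difference -2.46, SE 0.18, adjusted p 8.7e-07) and 5.31-fold lower in WT1-intermediate cells (difference -2.41, SE 0.18, adjusted p 1.3e-06). Gys1, the glycogen synthase of muscle and most tissues, was detected on 0 of 3 WT1-high, 1 of 3 WT1-intermediate and 2 of 3 WT1-negative arrays. It was at least 1.18-fold lower in WT1-high cells (measured means 4.33 ± 0.09 and 4.79 ± 0.18, adjusted p 0.040), a call lost without WT1-high replicate 1 (0.11) or WT1-high replicate 8 (0.098). The call also ended with median scaling (0.060), no background correction (0.10), no detection filter (0.063) and an offset of 50 (0.080). In WT1-intermediate cells Gys1 differed by -0.42 (adjusted p 0.063). This passed the threshold without WT1-negative replicate 3 (0.049) or with array weights (0.034).

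The oxygen sensors diverged from one another. Hif1a, the oxygen-regulated subunit of HIF-1, changed by -0.69 (SE 0.25, adjusted p 0.034) in WT1-high and by -0.85 (adjusted p 0.014) in WT1-intermediate cells. In WT1-high cells the call was lost without WT1-high replicate 1 (0.11), WT1-high replicate 8 (0.088), WT1-negative replicate 3 (0.063) or WT1-negative replicate 14 (0.13), and in WT1-intermediate cells without WT1-intermediate replicate 8 (0.052), or without WT1-negative replicate 14 (0.062). Cyclic loess also ended it in WT1-high cells (0.058), and no detection filter ended it in both groups (0.10 and 0.051). HIF-1α is mainly controlled as a protein, which the arrays do not measure. Egln1, the main prolyl hydroxylase under normal oxygen, differed on its brightest probe by 0.02 (adjusted p 0.92) in WT1-high cells and changed by -0.69 (SE 0.19, adjusted p 0.010) in WT1-intermediate cells, where it was detected on 2 of 3 arrays. With cyclic loess normalization this call was lost (adjusted p 0.11). Another probe of Egln1 was called lower in both groups, detected on 1 of 3 WT1-high and 0 of 3 WT1-intermediate arrays.

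Egln3, a prolyl hydroxylase that is itself a HIF target, was the member with the clearest order over all 3 groups. Its level was 9.97, 10.29 and 10.10 on the WT1-high arrays, 8.71, 8.99 and 9.14 on the WT1-intermediate arrays and 7.12, 6.05 and 6.04 on the WT1-negative arrays. The groups did not overlap, with WT1-high cells highest and WT1-negative cells lowest, and among the latter replicate 3 stood about 1 log2 unit above the other two. Egln3 was 13.1-fold higher in WT1-high cells (difference 3.72, SE 0.27, adjusted p 6.1e-07) and 5.83-fold higher in WT1-intermediate cells (difference 2.54, SE 0.27, adjusted p 1.3e-05) than in WT1-negative cells. A second probe (ILMN_2782101) was at 5.44, 5.85 and 5.78 on the WT1-high arrays, 4.57, 4.48 and 4.40 on the WT1-intermediate arrays and 4.16, 4.25 and 4.28 on the WT1-negative arrays, and was detected on 3, 1 and 0 of the 3 arrays of these groups. On it WT1-high cells were at least 2.12-fold above WT1-negative cells (measured means 5.69 ± 0.22 and 4.23 ± 0.06, adjusted p 9.3e-06). Another probe (ILMN_1231847) was detected on 2, 2 and 0 of the 3 arrays and was likewise higher on all WT1-positive than on all WT1-negative arrays. Neither dimmer probe was called in WT1-intermediate against WT1-negative cells. The differences there were 0.25 (adjusted p 0.17) on ILMN_2782101 and 0.55 (adjusted p 0.076) on ILMN_1231847.

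Of the hypoxia targets outside glycolysis, Ndrg1 and Ankrd37 moved in opposite directions. Ndrg1, a stress-induced gene of differentiation that low oxygen and metals switch on, was at 10.89, 11.05 and 11.22 on the WT1-high arrays, 10.33, 10.98 and 10.87 on the WT1-intermediate arrays and 7.50, 7.15 and 6.69 on the WT1-negative arrays. All WT1-positive arrays were more than 2 log2 units above all WT1-negative arrays. Ndrg1 was 15.3-fold higher in WT1-high (difference 3.94, SE 0.23, adjusted p 1.3e-07) and 12.2-fold higher in WT1-intermediate cells (difference 3.61, SE 0.23, adjusted p 3.2e-07), the largest difference of the members.

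Ankrd37, an ankyrin repeat gene induced by HIF-1 whose promoter window above holds 4 matches, was at 5.37, 5.23 and 5.64 on the WT1-high arrays, 6.22, 5.84 and 6.01 on the WT1-intermediate arrays and 8.95, 6.88 and 7.66 on the WT1-negative arrays. The WT1-negative arrays were all above the WT1-positive ones but spread over 2 log2 units, with replicate 3 far above the other two. Ankrd37 changed by -2.41 (SE 0.39, adjusted p 0.00030) in WT1-high and by -1.81 (adjusted p 0.0023) in WT1-intermediate cells. Without WT1-negative replicate 3, the differences were -1.83 and -1.23, still called (adjusted p 0.00012 and 0.0018). Adm, the vasodilator peptide adrenomedullin, and Ddit4, a stress-induced inhibitor of mTORC1 signalling, were not called. Adm differed by 0.21 and 0.69 (SE 0.45), and without WT1-negative replicate 3 (adjusted p 0.038) it passed the threshold in WT1-intermediate cells. Ddit4 differed by -0.06 and -0.18 (SE 0.31).

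Vegfa, the vascular endothelial growth factor, was given opposite directions by its probes in WT1-intermediate against WT1-negative cells. The probe that stands for the gene (ILMN_2484527, annotated to transcript variant 2) was at 8.37, 8.94 and 8.76 on the WT1-high arrays, 9.99, 9.65 and 9.65 on the WT1-intermediate arrays and 9.19, 9.17 and 8.74 on the WT1-negative arrays. WT1-intermediate cells were above both other groups on it, with a difference from WT1-negative cells of 0.73 (SE 0.19, adjusted p 0.0072) that was -0.0037 with median scaling, while WT1-high cells differed by -0.35 (adjusted p 0.14). The other tested probe (ILMN_3121255, annotated to transcript variant 1, specificity likewise not checked) was at 6.17, 6.55 and 6.93 on the WT1-high arrays, 7.49, 7.33 and 7.05 on the WT1-intermediate arrays and 8.16, 8.53 and 7.87 on the WT1-negative arrays. On it WT1-negative cells were highest and WT1-high cells lowest, with differences of -1.63 and -0.89 from WT1-negative cells (SE 0.23, adjusted p 9.3e-05 and 0.0057). Both probes had WT1-high cells below WT1-intermediate cells.

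The comparison of the WT1-positive populations, both taken from fibrotic liver, was the one in which WT1 level was not bound up with culture. The path from glucose to lactate held no call there, with differences from -0.49 to 0.40 over 21 genes. With median scaling, Pfkp (0.93) and Pgam1 (0.94) were called higher in WT1-high cells (adjusted p 0.042 for each). Egln3 was 2.25-fold higher in the WT1-high than the WT1-intermediate population (difference 1.17, SE 0.27, adjusted p 0.036). Within the 3 pairs of arrays taken as 1 animal each (replicates 1 and 1, 8 and 8, and 29 and 30), the difference was 1.26, 1.29 and 0.96, higher in 3 of 3. The second Egln3 probe gave 1.20 (SE 0.15, adjusted p 0.0017) and was also higher in 3 of 3 animals. The dim probe ILMN_1231847 gave 0.08 (SE 0.25, adjusted p 0.90, not called), with differences of 0.02 to 0.18 within the animals. The call on the first probe was lost without WT1-high replicate 1 (0.061), WT1-high replicate 8 (0.13), WT1-high replicate 29 (0.090), WT1-intermediate replicate 1 (0.14) or WT1-intermediate replicate 8 (0.067), with differences between 1.05 and 1.25. It was also lost with array weights (0.097) and with no detection filter (0.14). None of these fits paired the arrays. With the animal as a random or fixed replicate block, the call was kept (adjusted p 0.0072 and 0.0020).

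Vegfa was 2.11-fold lower in the WT1-high population (difference -1.08, SE 0.19, adjusted p 0.013), with differences of -1.62, -0.72 and -0.90 within the 3 animals. On its other probe the difference was -0.74 (adjusted p 0.11, not called). The call was lost without WT1-intermediate replicate 1 (0.057), with no detection filter (0.0502) and under median scaling (difference -0.39, adjusted p 0.36), all without pairing. It was kept with the animal as a random or fixed replicate block (adjusted p 0.0033 and 0.0094). Macrophage markers changed in the same direction, with 7 of 11 lower in WT1-high cells and 0 higher. Of 8 endothelial markers, 2 were called lower and 0 higher, and their summed level was 985 to 1326 in WT1-high and 1572 to 2024 in WT1-intermediate cells. The part of either cell type in the levels of Vegfa and Egln3 was not tested. Egln1 was higher in WT1-high cells by 0.71 (adjusted p 0.072) and in 3 of 3 animals, and was called with the animal as a random replicate block (adjusted p 0.021) or fixed replicate block (adjusted p 0.040). Over all probes, 730 were called in this comparison (25.5% of them higher in WT1-high cells), against 1796 with the random and 1520 with the fixed block. With median scaling 2684 were called, 95.5% of them higher, and the median of all genes moved from 0.04 to 0.48.

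**Figure D3:**
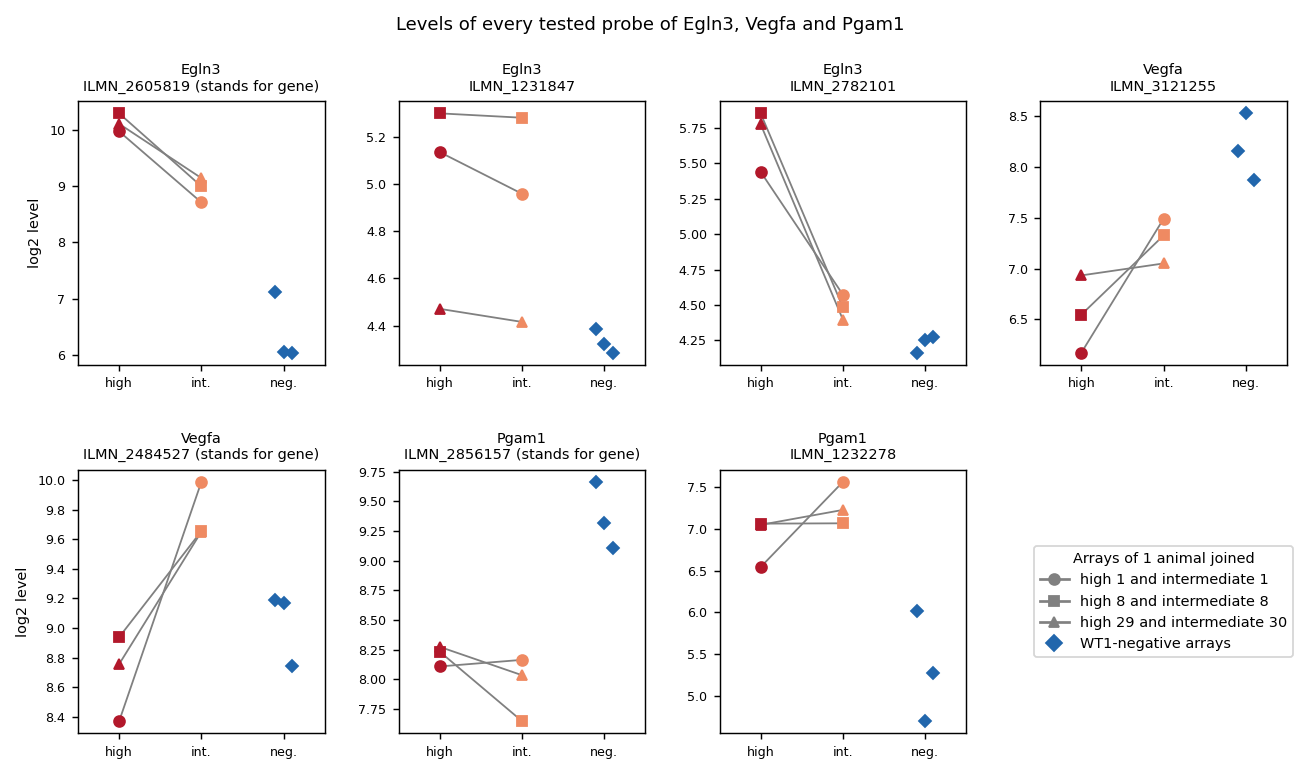
Log2 level of each tested probe of Egln3, Vegfa and Pgam1, 1 panel per probe with its own axis. Lines join the WT1-high and WT1-intermediate arrays taken as 1 animal, and diamonds are the WT1-negative arrays; the 2 Vegfa probes and the 2 Pgam1 probes place WT1-negative cells differently, while all 3 animals have higher Egln3 in WT1-high cells.

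Members also varied among replicates, and the median shift over members was largest in culture. WT1-negative replicate 3 had the highest level of its group for 19 of the 30 members and replicate 14 for 1 (63.3% and 3.33%), whereas over all 14659 genes these arrays were highest for 37% and 27.8%. On the path from glucose to lactate the counts were 14 and 0 of 21. The median difference from the group mean over the 30 members was 0.14 on replicate 3, 0.03 on replicate 11 and -0.19 on replicate 14. The members farthest above the group mean on replicate 3, picked out by these values, were Ankrd37 (1.12), Adm (0.92), Egln3 (0.72) and Slc2a1 (0.62). The members farthest below it there were Eno3 (-0.43), Pgam2 (-0.37) and Ddit4 (-0.36). In the fibrotic livers the corresponding medians lay between -0.05 and 0.06 for WT1-high and between -0.06 and 0.08 for WT1-intermediate arrays. WT1-high replicate 29 was highest of its group for 50% of members and replicate 1 lowest for 46.7%, beside 33.7% and 27.9% of all genes. WT1-intermediate replicate 1 was highest for 40%, beside 34.2%. Single members such as Gapdh, Eno1 and Pfkp spread more among WT1-intermediate than WT1-negative arrays, while others such as Ankrd37 spread less. What set the cultures apart was not tested.

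**Figure D4:**
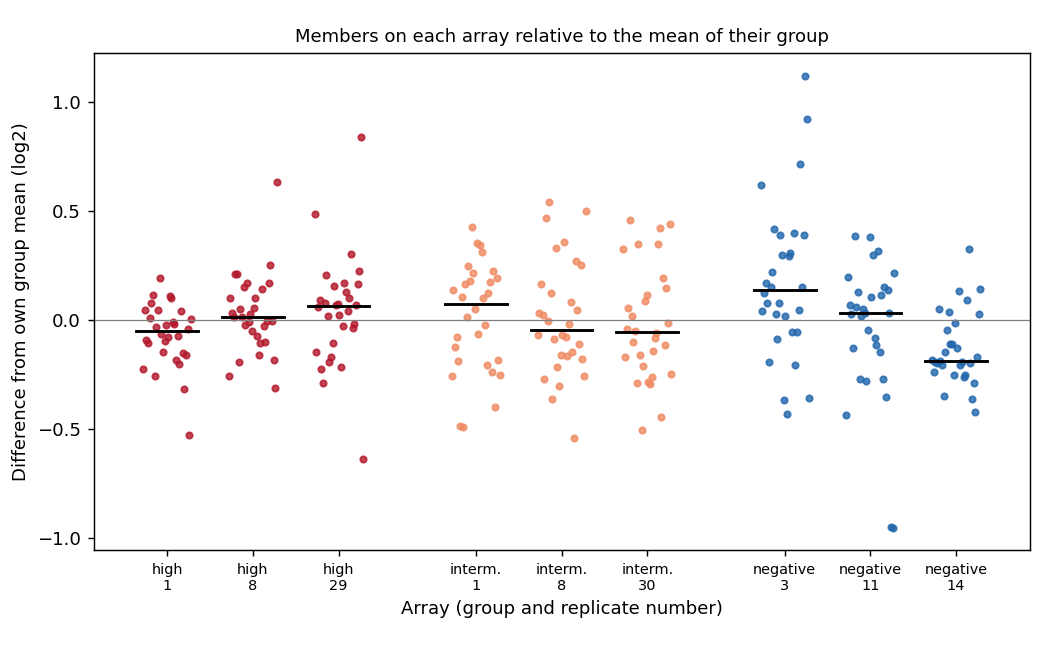
Difference of each of the 30 tested members from the mean of its own group on every array (log2), with the median over members as a black line. WT1-negative replicate 3 has the highest median (0.14) and replicate 14 the lowest (-0.19).

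Other genes of the same pathways, which were not members, moved in both directions. The counts below are to be read beside the shares over all genes tested. These were 27.6% higher and 32.1% lower in WT1-high, and 25.9% higher and 32% lower in WT1-intermediate against WT1-negative cells. Of 8 tested further glycolytic enzymes and transporters, 2 were higher and 2 lower in WT1-high than in WT1-negative cells, and 1 and 2 in WT1-intermediate cells. Hk3, the hexokinase of myeloid cells, changed by -4.63 and -2.91 (adjusted p 1.9e-07 and 7.8e-06) and was also 3.30-fold lower in WT1-high than WT1-intermediate cells (adjusted p 0.0082). Of the 11 macrophage markers, 7 were lower in that comparison too. The part of macrophages in its level was not tested. Of 4 gluconeogenic genes, 1 was higher and 1 lower in WT1-high and 0 higher and 2 lower in WT1-intermediate cells.

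Of 8 genes of the pentose phosphate pathway, which draws on glucose 6-phosphate for NADPH and ribose, 3 were higher and 5 lower in WT1-high cells, and 3 were higher and 4 lower in WT1-intermediate cells. G6pdx, its entry enzyme, changed by -1.98 and -1.87 (SE 0.14), and Pgd, the second dehydrogenase of its oxidative branch, changed by -1.44 and -0.99. H6pd, which does the same in the endoplasmic reticulum, rose by 1.70 and 1.54, and Rpe, an epimerase of the non-oxidative branch, by 1.42 and 1.32. Among 9 genes of glycogen metabolism, 1 was higher and 5 lower in each group. Ppp1r3b, the subunit that targets a phosphatase to glycogen, changed by -2.18 and -2.23.

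Around pyruvate dehydrogenase, 4 of 8 genes were higher and 1 lower in WT1-high cells, and 2 and 1 in WT1-intermediate cells. Dld, the dihydrolipoamide dehydrogenase of the complex, rose by 2.57 and 2.30. The kinase Pdk4 rose by 1.96 and 1.75 (adjusted p 4.3e-05 and 0.00011), opposite to its relative Pdk1. Pdp2, a phosphatase that reverses both, changed by -2.14 and -1.65. Its probe was matched through a synonym and not by symbol, and its identity was not checked further.

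Of 11 tested HIF subunits and regulators, 2 were higher and 4 lower in WT1-high cells, and 2 and 2 in WT1-intermediate cells. Epas1, which encodes HIF-2α, changed by -1.98 (adjusted p 2.2e-06) in WT1-high cells and, detected on no WT1-intermediate array, was at least 3.65-fold lower there. Vhl, the ubiquitin ligase subunit that recognises hydroxylated HIF, rose by 1.46 and 1.21 (SE 0.18). Of 19 further HIF targets, 4 were higher and 8 lower in WT1-high cells, and 3 and 6 in WT1-intermediate cells. The shares called were 54.5% and 36.4% of the 11 and 63.2% and 47.4% of the 19. Over all genes they were 59.8% and 57.9%. The transferrin receptor Tfrc changed by -3.03 and -2.98, and endothelin 1 (Edn1) by -2.52 and -1.51. The MYC antagonist Mxi1 rose by 2.31 and 2.46, and carbonic anhydrase 9 (Car9), a membrane enzyme strongly induced by low oxygen, by 2.28 and 1.86 (SE 0.24), the direction of Egln3 and Ndrg1. Between WT1-high and WT1-intermediate cells none of the 19 and none of the 11 was called.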

How the data were processed

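RNA of 9 samples (3 groups of 3) was hybridised to 1-colour Illumina MouseWG-6 v2.0 bead arrays. The authors deposited, in 1 table for fibrotic liver and 1 for culture, the raw intensity of each probe on a linear scale, without background correction, with a detection p-value per array. Negative control probes came with them. The labels name limma for the authors' own processing. Each column was tied to its sample by title, except that the WT1-intermediate column numbered 29 was taken as the sample labelled 30, the only one left in its group. Both tables held the same probes and were normalized together.

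Here, intensities were background-corrected on 936 negative controls, given an offset of 16, quantile-normalized and log2-transformed (neqc, limma 3.58.1, R 4.3.3). Probes detected (p under 0.05) on 3 arrays or more were fitted in 1 linear model of 3 groups (6 residual and 5.19 prior degrees of freedom), with empirical Bayes moderation and Benjamini-Hochberg adjustment. Within the WT1-positive groups, same-numbered samples came from the same animal as far as the study describes it, and their deviations from the group means correlated (r = 0.352, 0.338 and 0.468, against -0.386 to 0.034 for the 6 other pairings), so they were treated as paired in an alternative with a replicate block. The study describes its replicates as individual animals in vivo and separate cell isolations in vitro. The procedure was tested on simulated data.

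Members and gene lists were chosen with earlier results of these data known. Values per array are given for members called in any comparison with a difference of at least 1 on the log2 scale, and up to 4 genes are named from each further list. Precision is limited by the number of arrays. "At least" folds, given where no array of the dimmer group detected a probe, use the lowest level of a detected probe on each array of that group as its level. Alternatives covered background correction, offset, normalization, the detection filter, array weights, the choice of probe, the samples in the fit, the replicate block and leaving out each array. Promoter sequences were RefSeq's, matched by symbol or synonym.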

Additional observations from a re-analysis of the deposited data

Results flagged for a closer look

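Egln3 and Vegfa were the only members whose effect against WT1-negative cells differed between WT1-high and WT1-intermediate cells by limma's test of the difference itself. That difference was 1.17 for Egln3 (adjusted p 0.036, higher in 3 of 3 animals) and -1.08 for Vegfa (adjusted p 0.013, lower in 3 of 3 animals) on the log2 scale. Neither call held under every alternative.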

How the results depend on the processing

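Of the member calls, 14 of 20 in WT1-high against WT1-negative cells and 14 of 22 in WT1-intermediate against WT1-negative cells held under every alternative in which the gene was tested, and 0 of 2 between the WT1-positive groups. Leaving out 1 array at a time gave 16 to 21, 19 to 22 and 0 to 2 member calls in these comparisons, and 10171 to 12414, 9799 to 12048 and 324 to 866 calls over all probes. Requiring detection on all 9 arrays left 7970 and 7716 calls over all probes against WT1-negative cells, since fewer probes were tested. Between the WT1-positive groups, the 730 calls became 2684 with median scaling (4 among members), 335 without a filter (0 among members) and 339 with only these groups in the fit, and array weights left 1 member call. Of calls in WT1-intermediate against WT1-negative cells, 42.1% were higher with quantile normalization, 23.1% with median scaling and 51.2% with cyclic loess. The median difference of the members was -0.38 and -0.47 without background correction, -0.44 and -0.54 with an offset of 50, -0.51 and -0.51 with cyclic loess and -0.69 and -0.75 with detection on all arrays, in WT1-high and WT1-intermediate against WT1-negative cells, respectively. In the latter it was -1.24 with median scaling and -0.58 with array weights. Between the WT1-positive groups it was 0.45 with median scaling. The causes were not tested.

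With the animal as a replicate block, calls between the WT1-positive groups rose from 730 to 1796 (random block; 747 higher, 1049 lower) and 1520 (fixed block; 501 higher, 1019 lower). Among members the block added Egln1 there and ended the call of Pfkp in WT1-intermediate against WT1-negative cells, and it changed no other call.

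Signs turned against WT1-negative cells for members that were mostly not called. With the mean over all probes, Pgam1 was at 0.198 and 0.270 in WT1-high and WT1-intermediate cells, Vegfa at -0.082 in WT1-intermediate and Egln1 at -0.215 in WT1-high cells. With median scaling in WT1-intermediate cells, Vegfa was at -0.0037 and Aldoc at -0.314. In WT1-high cells, Pfkfb3 was at 0.019 with median scaling and 0.093 with cyclic loess, and in WT1-intermediate cells at 0.00058 with the latter. Adm was at -0.063 with array weights in WT1-high cells. Leaving out 1 array at a time gave differences on both sides of 0 in WT1-high cells for Adm (-0.261 to 0.669), Ddit4 (-0.383 to 0.253), Egln1 (-0.072 to 0.099), Hk1 (-0.080 to 0.136) and Pfkfb3 (-0.124 to 0.038), and in WT1-intermediate cells for Pfkfb3 (-0.215 to 0.153) and Slc2a1 (-0.281 to 0.248). Between the WT1-positive groups, 19 of the 28 members not called changed sign under some alternative. In addition, 3 gained a call, Egln1 and, with median scaling alone, Pfkp and Pgam1. Slc16a3, Gys1, Pgam2 and Pfkfb3 lay close to background, where differences cannot be measured well.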
